A study of Mus musculus with 24 samples.

Results

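Interferon-stimulated genes (ISGs) were followed in mouse liver ductal cells and the stroma around them as a list of 41 genes, taken by symbol from the first column of 2 expression tables with 49568 rows each. All 41 genes were present in both tables. They comprise 4 transcription factors of the interferon response (Irf1, Irf7, Irf9 and Stat2), 4 sensors of viral nucleic acid (Ddx58, Ifih1, Dhx58 and Zbp1), 12 antiviral effectors (Ifit1, Ifit2, Ifit3, Oas1a, Oasl1, Oasl2, Oas2, Oas3, Mx1, Mx2, Rsad2 and Bst2), Isg15 and the gene of its protease Usp18, 6 guanylate-binding proteins (GBPs, Gbp2 to Gbp7), 4 immunity-related GTPases (IRGs, Iigp1, Igtp, Irgm1 and Irgm2), 3 immunoproteasome subunits (Psmb8, Psmb9 and Psmb10) and 6 other interferon-induced genes (Ifi35, Ifi44, Xaf1, Parp9, Parp14 and Trim30a). In the freshly sorted populations 40 of the 41 passed the filter on low values (1 or higher in 3 or more of the 12 samples), and Oas3 did not. In the transwell samples all 41 passed (1 or higher in 2 or more of the 12 samples).

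Interferons are secreted proteins that bind receptors on nearly every cell type and switch on ISGs through JAK kinases and STAT proteins. Type I and III interferons act mainly through a complex that holds STAT2 and IRF9 and binds the interferon-stimulated response element (ISRE), whereas type II interferon (IFN-γ) acts mainly through the gamma-activated site (GAS). IRF1 and IRF7 are induced in turn and extend the response. Many GBPs and IRGs, which attack membranes around intracellular pathogens, respond strongly to IFN-γ, and the OAS, IFIT and MX proteins restrict viral RNA and protein synthesis or capsids. USP18 removes ISG15 from proteins and dampens signalling at the type I receptor.

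RNA from 4 populations was sequenced for the homeostasis experiment, which used mice A, E and F, littermates aged 12 weeks and heterozygous for the Pdgfra-H2B-EGFP knock-in reporter on a C57BL/6 background (n = 3 mice per population). Ductal cells (DCs) were sorted as EpCAM+. Stroma without CD45, CD11b or CD31 was split by SCA1 and the reporter into a PDGFRα+SCA1+, a PDGFRα+SCA1− and a PDGFRα−SCA1+ fraction. The transwell experiment used wild-type C57BL/6 mice of 8 to 12 weeks and holds 6 groups of 2 samples, which are DCs at day 0, organoids grown from DCs in expansion medium with growth factors (EM organoids), organoids grown above SCA1+ stroma in a basal medium with WNT3a-conditioned medium (co-cultured organoids), and SCA1+ mesenchymal cells (SCA1+Msc) at day 0, cultured alone or co-cultured with DCs. Cultures ran for 15 days across an insert that cells cannot cross, and SCA1+Msc were sorted without a PDGFRα reporter. Per the study's methods the stroma was first expanded on the plates, and DCs were then added for the 15 days. Stroma and DCs came from 2 littermates each. The p-values for this experiment rest on the spread between the 2 samples of a group, pooled over the 6 groups. Co-cultured and EM organoids differ in medium as well as in the presence of stroma, and these cannot be told apart.

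The recovered depth was 19.3 M to 28.0 M reads per sample over both experiments. Marker genes went with the labels of the DCs and of the PDGFRα+ fractions, whose 6 ductal and 6 mesenchymal markers reached sums of 56366 to 76143 and of 25450 to 48302. The PDGFRα−SCA1+ fraction did not hold mesenchymal RNA at such a level (sums of 244 to 465), and its 6 endothelial markers summed to 2565 to 2877, against at most 24.7 in any other freshly sorted sample of these mice. Pecam1, which encodes CD31, the protein the gate excludes, was listed there at 726, 732 and 929. Of 12 immune markers 9, 6 and 9 were over the floor of 3 reads in mice A, E and F of this fraction, with sums of 280, 322 and 522. The PDGFRα−SCA1+ sample of mouse E held ductal RNA (a sum of 3779, against 79.5 and 326 in mice A and F). Hepatocyte RNA was present in all 16 fresh samples, with 6 markers that summed to 968 to 24515.

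Sequence upstream of 4 ISGs is shown because the letters of the ISRE can be read there. These are the genes with the largest fall of SCA1+ stroma in culture among those whose promoter held it. RefSeq promoters (GRCm38.p6, 250 bases before to 50 after the start) were found for 30 of the 41 genes. The ISRE was searched as GAAANNGAAA on both strands (TTTCNNTTTC on the other), and 18 of the 30 genes held it, against 3.99% of 27025 genes. The GAS letters TTCNNNGAA, which read the same on both strands, were held by 10 of the 30 genes, against 9.55% of all genes. None of the 4 genes shown held the GAS letters. Capitals mark each ISRE match in 80 upstream bases read 5′ to 3′ on the strand of the gene.
Rsad2 (chr12:26456528-26456607, minus strand, match 120 to 111 bases before the start): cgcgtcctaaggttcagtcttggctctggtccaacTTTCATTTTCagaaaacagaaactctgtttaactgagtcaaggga
Isg15 (chr4:156200852-156200931, minus strand, first match 78 to 69 bases before the start): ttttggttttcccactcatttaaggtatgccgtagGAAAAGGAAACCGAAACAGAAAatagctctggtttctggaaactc
Ifit1 (chr19:34640750-34640829, plus strand, first match 104 to 95 bases before the start): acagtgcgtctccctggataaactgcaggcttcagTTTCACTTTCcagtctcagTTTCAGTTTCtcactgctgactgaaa
Ifit3 (chr19:34583338-34583417, plus strand, first match 156 to 147 bases before the start): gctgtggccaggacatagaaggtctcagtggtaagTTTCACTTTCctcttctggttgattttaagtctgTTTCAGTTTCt
Isg15 holds 3 overlapping matches, Ifit1 and Ifit3 hold 2 each, and Rsad2 holds 1. By class, the letters were found for 4 of 4 GBPs, 3 of 3 IRGs, 6 of 9 antiviral effectors and 0 of 3 immunoproteasome subunits with a promoter in the tables. A match is a description of the letters and was not tested for binding.

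In the freshly sorted populations the ISGs ran lowest in DCs, at an intermediate level in both PDGFRα+ fractions and highest in the PDGFRα−SCA1+ fraction. The median over 40 genes was 13.2 to 15.4 in DCs, 40.2 to 58.6 in PDGFRα+SCA1− cells, 26.7 to 71.8 in PDGFRα+SCA1+ cells and 120.4 to 207.4 in PDGFRα−SCA1+ cells. Values of these populations are in the deposited unit, which is per exon length and close to TPM (transcripts scaled to a fixed library total), and log2 differences are on the scale of log2(value + 1), which understates the change of low genes. In bulk RNA fewer cells that express a gene and less RNA per cell cannot be told apart. The mean was highest in PDGFRα−SCA1+ cells for 40 of 40 genes, where this was so for 32.4% of the 17028 genes tested, and lowest in DCs for 32 of 40, against 23.7%. For 28 of 40 every PDGFRα−SCA1+ sample lay above every other sample (8.85% of genes tested), and for 22 of 40 every DC sample lay below every stromal sample (5.5%).

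**Figure D1:**
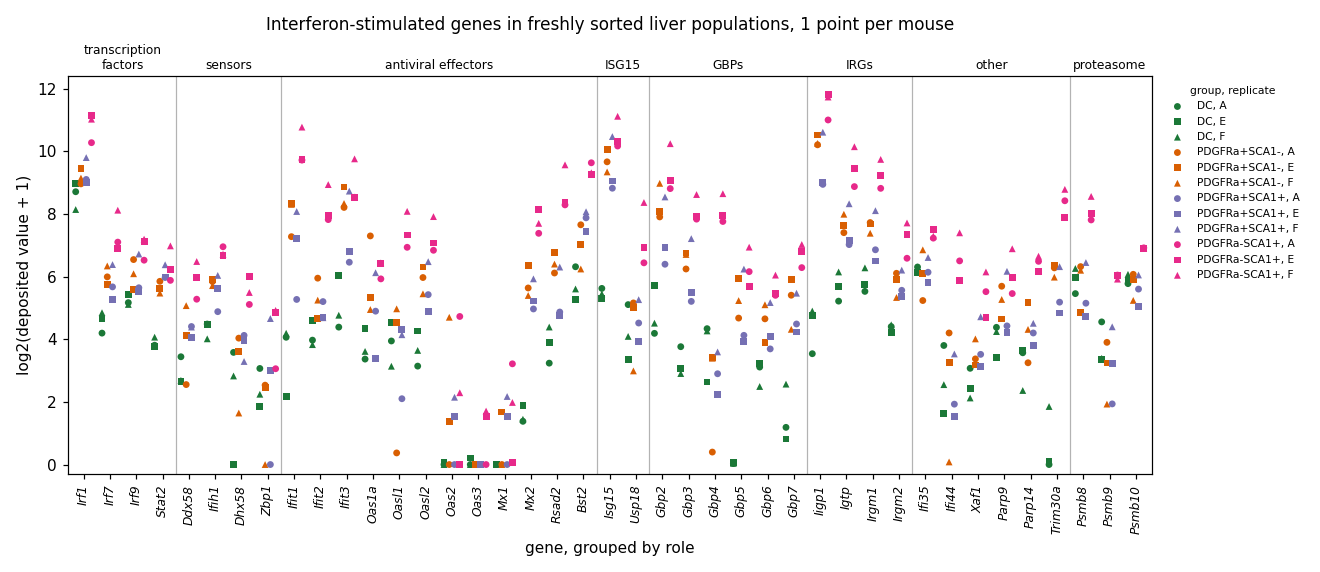
Level of each of the 41 genes in the freshly sorted populations as log2(deposited value + 1), with genes on the horizontal axis by role, 1 point per sample, colours for populations and marker shapes for mice A, E and F. The PDGFRα−SCA1+ points lie at the top of nearly every column, and DC points at the bottom of most.

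Against DCs, PDGFRα−SCA1+ cells were higher for 37 of 40 ISGs and lower for 0 (limma, adjusted p under 0.05 over all genes), where 11.5% of the genes tested were higher, and the median log2 difference was 3.32 over the ISGs and −0.04 over all genes. Iigp1, an IRG, was listed at 2041, 3561 and 3389.9 in PDGFRα−SCA1+ cells and at 10.6, 26.1 and 28.8 in DCs, a log2 difference of 7.11 (SE 0.46, limma adjusted p = 6.79e-07). Isg15, the ubiquitin-like modifier, was listed at 1147, 1271 and 2213 against 48.2, 38.4 and 42.6, a log2 difference of 5.07 (SE 0.40, limma adjusted p = 2.37e-06). Ifit1, which binds viral RNA caps, was at 839, 849 and 1742 against 15.7, 3.53 and 17.3 (log2 difference 6.59, SE 0.69). For none of these 3 genes did the samples of both populations overlap. Trim30a, a TRIM protein of the interferon response, had 341, 236 and 439 in PDGFRα−SCA1+ cells and 0, 0.0829 and 2.61 in DCs, a log2 difference of 7.71 (SE 0.52). With DC values this low the size of the difference depends on the pseudocount, and refits gave 7.38 to 9.8. Mx2, an antiviral GTPase, had 165, 283 and 206 against 1.6, 2.71 and 1.72 (6.17, SE 0.38), and Rsad2, which encodes the antiviral protein viperin, had 311, 325 and 755 against 8.42, 13.8 and 19.9 (4.90, SE 0.48). Both genes separated the populations without overlap.

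All 6 GBPs were among the 37. Gbp2 stood at 447, 534 and 1208 in PDGFRα−SCA1+ cells and at 17.2, 51.0 and 21.8 in DCs (log2 difference 4.57, SE 0.58), Gbp3 at 227, 242 and 391 against 12.6, 7.36 and 6.48 (4.88, SE 0.48), and Gbp7 at 76.9, 111 and 129 against 1.28, 0.760 and 4.92 (5.18, SE 0.56). Gbp5 had 70.3, 50.7 and 122 in PDGFRα−SCA1+ cells and at most 2 reads in any DC sample, so that its fitted difference is set by the pseudocount and is not given. The 4 transcription factors, both genes of the ISG15 system, the 4 IRGs, the 6 other interferon-induced genes and the 3 immunoproteasome subunits also passed, as did 3 of 4 sensors and 9 of 11 antiviral effectors. The genes that did not pass were Zbp1, Oas2 and Mx1, which were listed at no more than 29.3 in any sample.

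Both PDGFRα+ fractions were also higher than DCs, by less. PDGFRα+SCA1+ cells were higher for 19 of 40 ISGs and lower for 0 (9.85% of genes tested were higher), with a median log2 difference of 1.27 against −0.28 over all genes. PDGFRα+SCA1− cells were higher for 21 of 40 and lower for 0 (9.98% of genes tested were higher), with a median of 1.44 against −0.47 over all genes. These comparisons share the DC samples. The 4 IRGs passed in both, 4 and 5 of the 6 GBPs passed, and 0 of the 3 immunoproteasome subunits did. Of 6 dissociation genes 5 were also higher than in DCs and 1 lower in each PDGFRα+ fraction (sums of 21461 to 25944 against 12119 to 16196), and their part in the result was not tested.

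Iigp1 in PDGFRα+SCA1+ cells was at 490.4, 510.2 and 1556 (log2 difference from DCs 5.12, SE 0.46, limma adjusted p = 6.02e-06) and Isg15 at 450.3, 529 and 1413 (3.99, SE 0.40, limma adjusted p = 1.37e-05). In PDGFRα+SCA1− cells the same genes were at 1178, 1463 and 1215 (5.92, SE 0.46) and at 808, 1068 and 646 (4.23, SE 0.40). The samples of each fraction lay above every DC sample for both genes. Trim30a was at 35.3, 27.5 and 78.6 in PDGFRα+SCA1+ cells (4.79, SE 0.52) and at 76.5, 80.2 and 62.1 in PDGFRα+SCA1− cells (5.54, SE 0.52). These 2 differences also depend on the pseudocount, with 4.35 to 6.86 and 5.22 to 7.63 over refits. Mx2 was at 30.2, 36.2 and 59.8 (3.80, SE 0.38) and at 48.7, 80.3 and 41.1 (4.22, SE 0.38). Ifit1, at 37.6, 146 and 269 in PDGFRα+SCA1+ cells, spread more widely between mice (3.37, SE 0.69) than in PDGFRα+SCA1− cells, where it was at 154, 321 and 315 (4.49, SE 0.69). Gbp5 was at 16.4, 14.1 and 74.4 in PDGFRα+SCA1+ cells and at 24.5, 60.0 and 36.6 in PDGFRα+SCA1− cells, against at most 2 reads per DC sample, and passed in both. The rest of the 10 largest were Ifit3, Gbp2, Gbp3 and Gbp7, with log2 differences of 2.27, 2.49, 2.72 and 3.20 in PDGFRα+SCA1+ cells and 3.41, 3.51, 3.32 and 3.68 in PDGFRα+SCA1− cells. Ifit3 in PDGFRα+SCA1+ cells lost its call when DC sample A, DC sample F or PDGFRα+SCA1+ sample F was left out (limma adjusted p = 0.0675, 0.0564 and 0.0524).

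PDGFRα+SCA1+ and PDGFRα+SCA1− cells were compared directly to ask whether ISGs differ with SCA1 among PDGFRα+ cells. The test called 0 of 40 ISGs in either direction (limma), 2 had an unadjusted p under 0.05 (11.7% of genes tested), and 0.435% and 0.153% of the genes tested were called higher and lower. Rsad2 had an unadjusted limma p of 0.0393 and Bst2, which encodes tetherin, one of 0.044. For 1 of 40 genes, Stat2, all 3 PDGFRα+SCA1+ samples (61.6, 62.4 and 82.0) lay above all 3 PDGFRα+SCA1− samples (56.5, 48.2 and 43.3), and this was so for 8.82% of genes tested. For 0 of 40 the order was the opposite without overlap (5.66% of genes tested).

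PDGFRα−SCA1+ cells exceeded PDGFRα+SCA1+ cells for 26 of 40 ISGs and were lower for 0 (10.9% of genes tested were higher and 7.86% lower), with a median log2 difference of 1.71 against 0.25 over all genes. Gbp4 was at 215, 247 and 399 against 6.45, 3.75 and 11.1, a log2 difference of 5.2 (SE 0.78, limma adjusted p = 0.000488). Ifit2 was at 224, 248 and 488 against 35.8, 25 and 24.7 (3.37, SE 0.41), and Rsad2 stood 3.43 (SE 0.48) above PDGFRα+SCA1+ cells. The immunoproteasome, whose subunits replace the standard catalytic ones and shape peptides for antigen presentation, was higher with 3 of 3 subunits. Psmb8 was at 223, 259 and 375 against 34.5, 25.2 and 86.2 (2.69, SE 0.49), and Psmb9 at 65.1, 65.0 and 59.4 against 2.82, 8.38 and 20 (2.82, SE 0.66). Ifi44, Oasl1, Ifit1, Trim30a and Usp18 complete the 10 largest, with log2 differences of 4.26, 3.93, 3.22, 2.92 and 2.68. The call was lost for Ifi44, Oasl1 and Trim30a with a pseudocount of 0.1 (limma adjusted p = 0.056, 0.0636 and 0.0588), and for Oasl1 or Usp18 without single samples (0.0533 to 0.0843). The endothelial markers given above move with the fraction that is highest here, and their part in the difference was not tested.

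Mouse F stood apart in PDGFRα+SCA1+ cells, and by less in PDGFRα−SCA1+ cells. In PDGFRα+SCA1+ cells of mouse F 38 of 40 ISGs were above the mean of mice A and E (57.1% of genes tested). Of these, 26 were above by a log2 difference of 1 or more (11.1% of genes tested). The median difference was 1.29 against 0.13 over all genes. Gbp5 at 16.4, 14.1 and 74.4 and Ifit3 at 86.8, 109.6 and 422 show the pattern, with mouse F named last. In PDGFRα−SCA1+ cells 32 of 40 were higher in mouse F (55.5% of genes tested), 11 of them by 1 or more (19.9%), with a median of 0.74 against 0.12. In PDGFRα+SCA1− cells 16 of 40 (45.5% of genes tested), and in DCs also 16 of 40 (38.6%), were higher in mouse F. The reuse of totals in the deposited values was then undone. In PDGFRα+SCA1+ cells 37 genes were higher in mouse F, 17 of them by 1 or more (median 0.94, against −0.05 over all genes). In PDGFRα−SCA1+ cells 32 were higher, 5 of them by 1 or more (median 0.52, against 0.0 over all genes). The shares of all genes were not counted in this unit, so that these counts have no background. Mouse F is the 1 female among the 3, so that sex and mouse cannot be told apart. Immune RNA was present in all PDGFRα−SCA1+ samples, with the largest marker sum in mouse F, as given above. Ptprc, the gene of CD45, was at 75.2 in mouse F against 3.10 and 0.224, and Siglech at 58.0 against 0 and 0. Mouse A had as many immune markers over the floor as mouse F in this fraction. The immune markers in PDGFRα+SCA1+ cells summed to 99.5 in mouse F, between the 72.5 and 214 of mice A and E. Without the PDGFRα+SCA1+ sample of mouse F 13 ISGs were called against DCs, and without the PDGFRα−SCA1+ sample of mouse F 31 were. Between the SCA1+ fractions 33 were called without the PDGFRα+SCA1+ sample of mouse F.

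**Figure D2:**
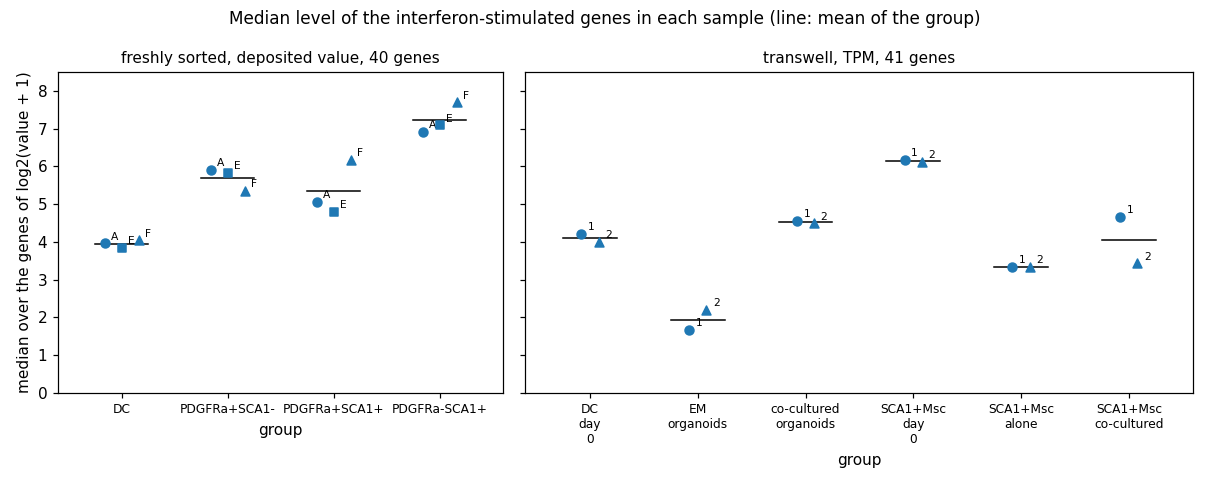
Median over the ISGs of log2(value + 1) in each of 24 samples, in the deposited unit for sorted populations (left) and as TPM for the transwell groups (right), with points for samples, letters or numbers for replicates and a line at the mean of each group. Mouse F is highest in both SCA1+ fractions, and co-cultured SCA1+Msc split into replicate 1 at 4.66 and replicate 2 at 3.43, beside 3.33 and 3.34 alone.

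In the transwell experiment the same order was found between fresh cells. SCA1+Msc at day 0 were higher than DCs at day 0 for 31 of 41 ISGs and lower for 0 (21.4% of genes tested were higher), with a median log2 difference of 1.76 against −0.07 over all genes. Values of this experiment are TPM. Iigp1 was at 622 and 553 in SCA1+Msc and at 51.1 and 45.2 in DCs (log2 difference 3.58, SE 0.27), and Isg15 at 915 and 864 against 85.2 and 63.2 (3.58, SE 0.63). Mx2 at 121 and 73.2 against 4.79 and 3.94 (4.15, SE 0.51) and Trim30a at 79.8 and 72.7 against 5.54 and 2.88 (3.94, SE 0.36) had the largest differences. Ifit1, Gbp5, Ifit3, Oasl2, Gbp7 and Mx1 followed with 3.50, 3.34, 3.22, 2.88, 2.54 and 2.48, and Gbp5, at 18 and 22.9 against 3.26 and 0.0482, lost its call in a fit of these groups alone (limma adjusted p = 0.0786). Fresh SCA1+Msc also held hepatocyte RNA (Alb at 13010 and 9084) and endothelial RNA (6 of 6 markers over the floor, sums of 217 and 229 against 31.3 and 31.1 in DCs), and 5 of 6 dissociation genes were higher (sums of 22236 and 21398 against 7690 and 7620). The part of these in the difference was not tested.

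In SCA1+ stroma cultured alone, most ISGs were lower than in fresh SCA1+ stroma. SCA1+Msc alone were lower than at day 0 for 33 of 41 ISGs and higher for 0 (17.5% of genes tested were lower), with a median log2 difference of −2.45 against 0.19 over all genes. Isg15 fell from 915 and 864 to 32.9 and 31.3 (log2 difference −4.75, SE 0.63, limma adjusted p = 0.000251). Iigp1 fell from 622 and 553 to 41.2 and 31.8 (−3.98, SE 0.27, limma adjusted p = 4.97e-06). The transcription factor Irf1 fell from 746 and 698 to 43.3 and 42.4 (−4.04, SE 0.18, limma adjusted p = 3.65e-07). In each case both cultured samples lay far below both fresh ones.

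Antiviral effectors made up 4 of the 10 largest falls. Oasl1 went from 31.2 and 71.2 to 0 and 0.364 (log2 difference −5.37, SE 0.56), Mx2 from 121 and 73.2 to 0.613 and 2.86 (−5.25, SE 0.51), Rsad2 from 98.7 and 77.4 to 0.813 and 2.20 (−5.2, SE 0.68), and Ifit1 from 251 and 176 to 6.23 and 7.77 (−4.73, SE 0.72). The promoters of Rsad2, Isg15 and Ifit1 are those printed above. Gbp4 (30.9 and 24.9 to 0.609 and 0.0362), Gbp6 (23.3 and 27.6 to 0.328 and 0.661) and Usp18 (61.6 and 36.5 to 1.17 and 3.02) fell by 4.48, 4.15 and 4.04 on the log2 scale, although 29.0% of the exon bases of Gbp6 are shared with another gene model. Mx1 was at 6.64 and 5.12 when fresh and at 0 in both cultured samples, at least 55.8-fold lower against a floor of 3 reads per library. The 8 genes that did not pass were Zbp1, Ifi44, Oas2, Oas3, Bst2, Dhx58, Psmb8 and Psmb10. Bst2 was at 293 and 318, from 426 and 351. For 35 of 41 genes both day 0 samples lay above all 4 cultured SCA1+Msc samples (22.4% of genes tested).

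Genes of the dissociation response moved with this fall, from sums of 22236 and 21398 over 6 genes to 412 and 523. Hepatocyte markers fell from sums of 24515 and 19986 to 54.2 and 38.0. Of the other markers tested, 4 of 6 endothelial, 4 of 9 immune and 5 of 6 ductal markers were lower, and 3 of 6 mesenchymal markers were higher. The part of any of these in the fall of the ISGs was not tested.

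Co-cultured SCA1+Msc were compared with SCA1+Msc alone to ask whether ISGs of the stroma change beside ductal organoids. The test called 0 of 41 ISGs in either direction (limma), where 0.0937% and 0.0331% of the 18136 genes tested were called higher and lower. At an unadjusted p under 0.05 there were 3 ISGs, against 6.96% of genes tested. These 3 are named after their values were seen and are Usp18 (log2 difference 1.76, SE 0.53, limma adjusted p = 0.438), Oasl2 (1.33, SE 0.46, limma adjusted p = 0.554) and Irgm1 (0.63, SE 0.28, limma adjusted p = 0.712). The log2 difference was above 0 for 34 of 41 genes, with a median of 0.34 against 0.00 over all genes. The share of all genes above 0 was not counted. For 10 of 41 both co-cultured samples lay above both samples alone (14.9% of genes tested), and for 0 of 41 both lay below (19.0%).

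The 2 co-cultured samples differed from each other. In replicate 1, 38 of 41 ISGs were above the mean of the samples alone. Of these, 15 were above by a log2 difference of 1 or more (5.36% of genes tested). The median was 0.73, against 0.0 over all genes. In replicate 2, 18 of 41 were above, 1 by 1 or more (4.32% of genes tested), with a median of −0.04 against 0.0 over all genes. The share of all genes above the mean of the samples alone was not counted. Isg15 was at 180.5 in replicate 1 and at 32.2 in replicate 2, beside 32.9 and 31.3 alone. Ifi44, induced by type I interferon, was at 18 and 0.949, beside 1.89 and 1.04 alone. Ifit1 was at 41.9 and 9.80, beside 6.23 and 7.77, and Irf7 at 46.8 and 16.9, beside 17.3 and 12.1. Replicate 2 lay close to the samples alone for these genes, and replicate 1 well above them. Oasl2 was at 38.8 and 10.3, beside 7.59 and 7.29, and Usp18 at 15.5 and 5.06, beside 1.17 and 3.02, so that for these both co-cultured samples were higher. Of the GBPs and IRGs, Gbp3, Gbp4, Igtp and Irgm1 were among the 15 in replicate 1. Gbp3 was at 21.6 and 3.18, beside 9.02 and 6.24 alone, and Igtp at 41.4 and 12.6, beside 17.5 and 19.9, so that replicate 2 was the lowest of the 4 samples for both. Iigp1 (52.8 and 43.2, beside 41.2 and 31.8) and Irgm1 (41.1 and 20.1, beside 17.7 and 18.7) had both co-cultured samples above both alone, and Irf1 (46.3 and 32.4, beside 43.3 and 42.4) did not. Without replicate 1 the median over the ISGs was −0.04 with 0 of 41 called, and without replicate 2 it was 0.73 with 1 called, Oasl2 (limma adjusted p = 0.0156).

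Replicate 1 also held more hepatocyte RNA, with 6 of 6 markers over the floor and a sum of 410, where replicate 2 had 1 of 6 and 25.4 and the samples alone had sums of 54.2 and 38.0. Alb was at 305 and Apoa1 at 47.9 in replicate 1, against 0.0591 and 0 in replicate 2. Ductal markers summed to 553 and 272 in the co-cultured samples and to 211 and 236 alone. Ptprc was at 0 in all 4 samples, whereas Lyz2, a myeloid marker, was at 253 and 274 with co-culture and at 367 and 588 alone. The part of these in the difference between the replicates was not tested.

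**Figure D3:**
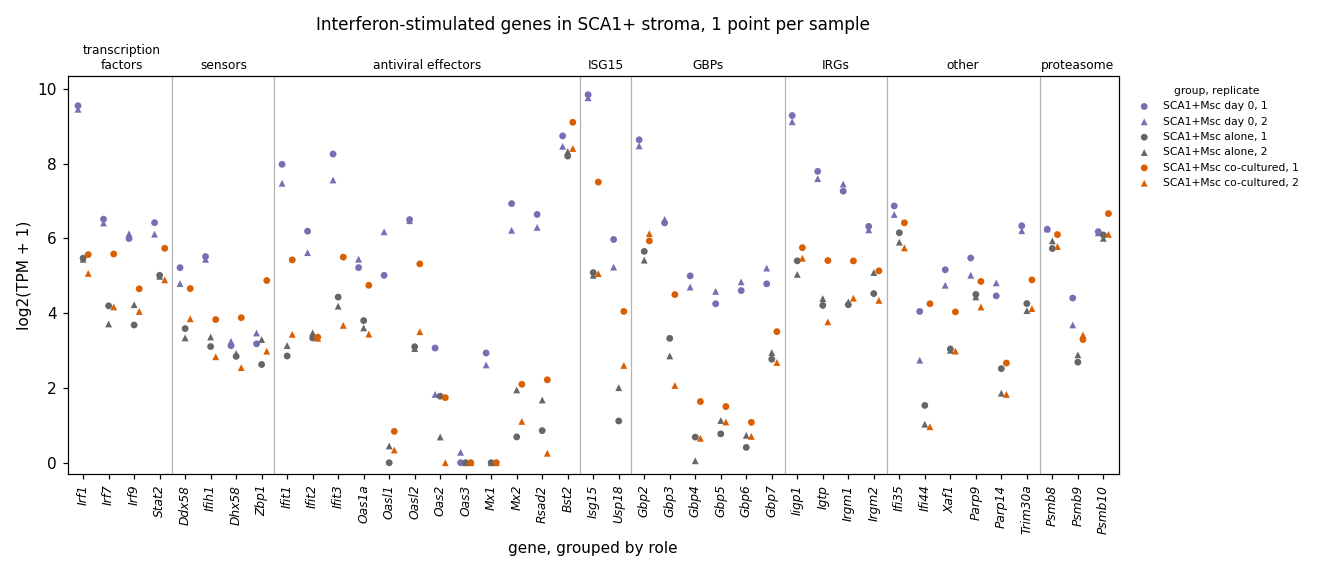
Level of each of the 41 genes in SCA1+Msc as log2(TPM + 1), with genes on the horizontal axis by role, colours for day 0, alone and co-cultured, and marker shapes for replicates 1 and 2. Day 0 points lie on top in most columns, and among the cultured samples co-cultured replicate 1 stands above the other 3 in most columns, as for Isg15 at 180.5 against 31.3 to 32.9.

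In ductal cells grown as EM organoids, most ISGs were lower than at day 0 as well. The median over the ISGs was 22.4 and 21.5 in co-cultured organoids, beside 17.5 and 14.9 in DCs at day 0. EM organoids were lower than DCs at day 0 for 27 of 41 ISGs and higher for 0 (17.2% of genes tested were lower), with a median log2 difference of −1.59 against 0.12 over all genes. Gbp2 went from 77.3 and 85.4 to 5.68 and 0.560 (log2 difference −4.67, SE 0.56, limma adjusted p = 0.000134). Iigp1 went from 51.1 and 45.2 to 2.16 and 1.40 (−4.15, SE 0.27, limma adjusted p = 3.39e-06). Isg15 went from 85.2 and 63.2 to 3.34 and 7.25 (−3.64, SE 0.63, limma adjusted p = 0.0012). Day 0 and EM samples did not overlap for these 3 genes. Gbp4, at 36.2 and 34.8 in DCs, was at 0 in both EM organoid samples, at least 598-fold lower against the floor, and Gbp7, at 5.30 and 3.79, was also at 0, at least 57.3-fold lower. Rsad2, Gbp3, Gbp6, Oasl1 and Usp18 fell by 3.88, 3.35, 3.25, 2.97 and 2.71 on the log2 scale. Oasl1 lost its call in a fit of these groups alone (limma adjusted p = 0.0662), and without DC day 0 replicate 1 the count was 17. Marker genes moved with this fall. The 6 dissociation genes were all lower, from sums of 7690 and 7620 to 693 and 721, and 7 of 9 immune, 5 of 6 endothelial, 4 of 6 hepatocyte and 4 of 6 mesenchymal markers tested were lower. Their part in the result was not tested.

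Co-cultured organoids, grown above the stroma, held a part of the ISGs at a high level. They were higher than EM organoids for 20 of 41 ISGs and lower for 1 (5.73% and 7.21% of genes tested were higher and lower), with a median log2 difference of 1.45 against −0.13 over all genes. Oas1a, a synthetase of the oligoadenylate messenger that activates RNase L, was at 124 and 134 against 3.35 and 3.49 (log2 difference 4.88, SE 0.41, limma adjusted p = 9.15e-05). Oasl1 was at 74.0 and 75.6 against 0.376 and 3.60 (4.91, SE 0.56, limma adjusted p = 0.000485). Oas3 was at 22.5 and 19.1 and at 0 in both EM samples, at least 331-fold higher against the floor. With Oasl2 at 84.1 and 72.6 against 2.62 and 3.66 (4.27, SE 0.46) and Oas2 at 17.1 and 24.2 against 1.80 and 0.809 (3.25, SE 0.65), all 5 OAS genes of the list were higher.

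Isg15 and its protease rose with them. Isg15 was at 196 and 150.02 against 3.34 and 7.25 (log2 difference 4.85, SE 0.63) and Usp18 at 82.2 and 42.4 against 1.51 and 1.52 (4.58, SE 0.53). Irf7, the factor that amplifies type I interferon production, was at 134 and 111 against 4.27 and 12.3 (3.88, SE 0.49). Ifi44 (26.5 and 22.1 against 0.983 and 1.23) and Xaf1, a pro-apoptotic interferon target (26.1 and 18.7 against 1.94 and 2.27), rose by log2 differences of 3.58 (SE 0.87) and 2.90 (SE 0.39). The 6 other interferon-induced genes of the list were all higher. Oas2 lost its call with a pseudocount of 0.1 and Ifi44 with no filter (limma adjusted p = 0.136 and 0.0557). Ifi44 lost its call when any sample of DCs or of either organoid group was left out (limma adjusted p of 0.0531 to 0.15), and Oas2 when EM organoid replicate 2 or either co-cultured replicate was. Without co-cultured organoid replicate 1, 12 ISGs were called, and in a fit of these 2 groups alone 9 were, without Oasl1, Irf7 and Oas2 (limma adjusted p = 0.0777, 0.0763 and 0.0588).

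No GBP passed the test in this comparison. Of 6 GBPs 0 were called, with 0.716 and 0 for Gbp4, 4.13 and 9.65 for Gbp2 and 0 in both samples for Gbp5 in co-cultured organoids. Iigp1 was at 1.83 and 0.638, beside 2.16 and 1.40 in EM organoids. Irf1 was the 1 gene called lower, at 39.4 and 52.7 against 75.6 and 73.1 (log2 difference −0.69, SE 0.18, limma adjusted p = 0.0341), and no gene was called lower with no filter, with quantile normalization, without the trend, in a fit of these groups alone, or without either DC, EM organoid or SCA1+Msc alone sample or co-cultured organoid replicate 1. The other genes without a call were 3 of 4 sensors, Stat2, 4 of 12 antiviral effectors (Ifit2, Ifit3, Rsad2 and Mx1), Igtp, Irgm2 and the 3 immunoproteasome subunits.

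The ISGs of co-cultured organoids were set beside fresh DCs by the order of samples only, without a fitted comparison. For 18 of 41 both co-cultured samples lay above both DC samples (36.1% of genes tested), and for 15 of 41 both lay below (33.8%). Above lay Oas1a, Oasl1, Oasl2, Oas2, Oas3, Isg15, Usp18, Bst2, Irf7, Irf9 and Stat2 among others, and below lay all 6 GBPs, Iigp1, Igtp, Irgm1, Irf1, Ifit2, Ifit3, Ifih1, Rsad2 and Psmb8. Both shares of non-overlap are near those of all genes, so that these counts are no result about the ISGs. Ifit3 and Oas1a have close paralogs, Ifit3b and Oas1g, and reads mapping to more than 1 place were dropped, so that their levels are uncertain. Of the 14 genes that rose over EM organoids and had a promoter in the tables, 7 held the ISRE letters and 3 the GAS letters, against 11 and 7 of the 16 others.

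**Figure D4:**
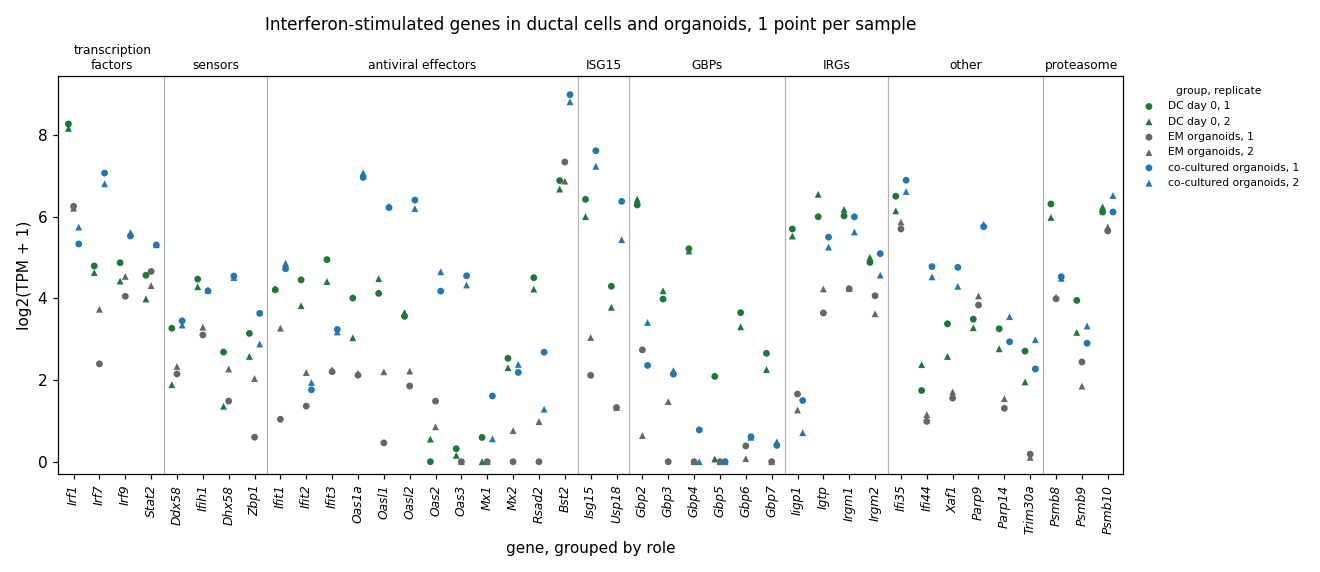
Level of each of the 41 genes in DCs at day 0, EM organoids and co-cultured organoids as log2(TPM + 1), with genes on the horizontal axis by role, colours for groups and marker shapes for replicates 1 and 2. Co-cultured organoids top the OAS genes, Isg15, Usp18 and Irf7, and lie below DCs for the GBPs, as for Gbp4 at 0.716 and 0 against 36.2 and 34.8 TPM. The order against DCs was not tested.

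The interferon genes themselves were at or near 0. Of 13 interferon ligands 0 passed the filter in either experiment, and in 23 of 24 samples their summed level was at most 1.72. The exception was the PDGFRα−SCA1+ sample of mouse F, where Ifng, the gene of IFN-γ, brought the sum to 79.4. All samples of this fraction held immune RNA, with the largest marker sum in mouse F. Receptor genes were present, with Ifnar2 at 243 to 432 in PDGFRα+SCA1+ cells and 121 to 145 in DCs, Ifngr1 at 135 to 168 and 355 to 589, and Ifnlr1, of the type III receptor, at 18.4 to 43.2 in DCs and at most 10.3 in any stromal sample of these mice.

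A further list of 50 interferon-induced genes was counted beside the 41, 49 of them tested in the fresh populations and 47 in the transwell samples. Like the 41, this list was chosen with earlier results of these data known, so that it is no independent support. In PDGFRα−SCA1+ cells 32 of 49 tested were higher than in DCs (11.5% of all genes tested) and 0 lower, led by the chemokine Cxcl9 (301 to 355 against 0 to 1.20), Ifi203, Slfn5 and Slfn2. In SCA1+Msc alone 35 of 47 were lower than at day 0 (17.5% of all genes tested) and 2 higher (27.4%), led by Cxcl10, a chemokine for T cells, which went from a mean of 2227 to 0.24, with Cxcl9, Ifi203 and Cmpk2 next. In co-cultured against EM organoids 18 of 47 were higher (5.73% of all genes tested) and 2 lower (7.21%), led by Ifi27l2a (mean of 202 against 0.303), Apol9a (42.9 to 51.3 against 0 in both samples), Apol9b and Rtp4. Cxcl10 was at 0.0496 to 1.3 and Cxcl9 at 0 in co-cultured organoids. In co-cultured against alone SCA1+Msc 0 of 47 were called (0.0937% of all genes higher and 0.0331% lower).

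The fall in culture was compared between SCA1+Msc (alone against day 0) and ductal cells (EM organoids against day 0) as an interaction. Co-cultured organoids were not part of this comparison. It passed for 10 of 41 ISGs, 9 with a larger fall in stroma and 1 with a larger fall in ductal cells, where 14.5% and 12.3% of genes tested lay in these directions, and the median was −0.90 against −0.04 over all genes. Irf1 fell by 4.04 in stroma and by 1.99 in ductal cells on the log2 scale (difference −2.06, SE 0.25, limma adjusted p = 0.000489). Psmb8 had a log2 change of −0.42 in stroma and −2.14 in ductal cells (difference 1.72, SE 0.24, limma adjusted p = 0.000829). The stroma was first expanded on the plates, so that time in culture cannot be told apart from cell type either. The cells were held in different media, so that cell type and medium cannot be told apart, and 5 ISGs were called without DC day 0 replicate 2 or without either sample of SCA1+Msc alone, and 6 without EM organoid replicate 2 or without SCA1+Msc day 0 replicate 1.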

How the data were processed

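The study sequenced polyadenylated RNA by Smart-seq2 as single-end reads. Per the labels and the study's methods, the authors aligned reads to GRCm38 with STAR 2.5.0a and dropped reads of low mapping quality. Exon reads were counted with featureCounts 1.6.0 (Ensembl annotation), although the study's methods give another version number, of the Rsubread package. Counting was not by strand, so that overlapping genes are uncertain, and close paralogs are uncertain since reads of low mapping quality were dropped. The transwell table was deposited as RPKM and was scaled here to TPM. The homeostasis table, named TPM by the authors, was deposited as values treated here as a score, since its columns sum to 847270 to 1173511; totals of the samples had been reused down the table, which puts values at 0.722 to 1.39 times TPM. Its 4 columns of means were not used, and 26 symbols of the transwell table read as dates.

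Low values were whole multiples of 1 read for 92.9% (homeostasis) and 93.0% (transwell) of those up to 20 reads, within 0.02 of a read, and gave depths with medians of 22.4 M and 22.9 M reads. A floor of 3 reads covers counting error only. Groups came from the sample labels. The log2(value + 1) was tested with limma 3.58.1 (R 4.3.3) with a trended prior over all groups of an experiment, for genes at 1 or more in at least 3 homeostasis or 2 transwell samples, with Benjamini-Hochberg adjustment over all genes tested and a threshold of 0.05. Summaries used Python 3.11.15, and the fit was tested on simulated data. The methods name no test for these tables. Homeostasis samples pair by mouse (mean residual correlation of 0.0373 within and −0.0187 between mice), and the fit with mouse as a block changed no call of a named gene. Genes named are, per comparison, at most the 10 with the largest log2 difference among those passing, and the 4 largest of each pathway list. The members and lists were chosen with earlier results of these data known. Alternatives were the pseudocount, filters, quantile normalization, no trend, only the groups compared, the block, the unit and each sample left out.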

Additional observations from a re-analysis of the deposited data

Results flagged for a closer look

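The change in culture differed between SCA1+Msc alone and ductal cells grown as EM organoids by an interaction test (limma) for 10 ISGs. The log2 change in stroma minus that in ductal cells was −2.39 for Gbp5, −2.39 for Oasl1, −1.48 for Stat2, −1.75 for Irf9, −1.23 for Irgm1, −2.06 for Irf1, −1.34 for Parp9, −2.48 for Mx1, −3.21 for Mx2 and 1.72 for Psmb8. Gbp5 and Mx1 were at 0 in both EM organoid samples, and Mx1 also in both samples of SCA1+Msc alone, so that their values depend on the pseudocount. With a pseudocount of 0.1 Gbp5, Irgm1, Mx2 and Oasl1 did not pass (limma adjusted p = 0.58, 0.0602, 0.354 and 0.0845). Leaving out single samples ended the call for Stat2 and Parp9 with any of 5 samples (0.0522 to 0.0964), for Oasl1 and Irgm1 with any of 10 and for Gbp5 with any of 11 (0.0628 to 0.149). With no filter or without the trend Gbp5, Irgm1 and Oasl1 did not pass either (0.0541 to 0.0948), nor did Gbp5 and Irgm1 with quantile normalization (0.0555 and 0.078) or Gbp5 and Oasl1 in a fit of the 4 groups alone (0.112 and 0.117). Groups of 2 or 3 samples are too small for a test of single samples that stand apart.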

How the results depend on the processing

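Leaving out 1 sample at a time gave 13 to 21 ISGs called for PDGFRα+SCA1+ cells against DCs, 18 to 21 for PDGFRα+SCA1− cells, 31 to 37 for PDGFRα−SCA1+ cells, 19 to 33 between the SCA1+ fractions, 0 to 0 between the PDGFRα+ fractions, 0 to 1 for co-cultured against alone SCA1+Msc, 28 to 34 for alone against day 0, 17 to 30 for EM organoids against DCs, 12 to 26 for co-cultured against EM organoids, 21 to 32 for fresh SCA1+Msc against DCs and 5 to 10 for the interaction. Under the other settings one count moved by more than 1.5 times, co-cultured against EM organoids, with 9 called in a fit of these groups alone, which has fewer samples. Of 744 refits of 93 named results under these settings 718 kept direction and side of the threshold, 26 lost the call and 0 reversed, and of 1116 with a sample left out 1057 did, 58 lost the call, 1 gained it and 0 reversed; the cause was not tested. With the mouse as a replicate block the counts were 19, 20, 36, 27 and 0. Transwell replicates share only a number (mean residual correlation 0.00504); with that number as a replicate block the counts were 0, 33, 27, 20, 31 and 8, and Gbp5 and Irgm1 lost the interaction call (limma adjusted p = 0.0579 and 0.0518). Depth limits Oas3 and Mx1, which were at 0 in all cultured SCA1+Msc.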

Other observations

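Of 19 receptors, kinases and regulators of interferon signalling, 5 were higher and 2 lower in co-cultured against EM organoids (limma), where 5.73% and 7.21% of all genes tested were. Socs1, an inhibitor of JAK kinases, was higher at a mean of 21.9 against 5.34 TPM (log2 difference 1.86, limma adjusted p = 0.00988). In SCA1+Msc alone against day 0, 7 of the 19 were higher and 6 lower (27.4% and 17.5% of all genes tested), with a median log2 difference of −0.18. Those higher include the receptor genes Ifnar1 at 69.9 against 27.3 (1.34, limma adjusted p = 0.000277) and Ifngr2 at 126 against 39.5 (1.65, limma adjusted p = 1.01e-05). Of 10 sensors upstream of interferon tested, 3 were higher and 3 lower there, beside the same shares of all genes.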
